A study of Mus musculus with 66 samples.

Results

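The small proline-rich (Sprr) genes encode short proteins of the cornified envelope, the cross-linked layer that hardens the outer cells of squamous epithelium. Transcripts of 10 of them (Sprr1a, Sprr1b, Sprr2a1, Sprr2a2, Sprr2a3, Sprr2d, Sprr2e, Sprr2f, Sprr2h and Sprr3) were followed through the lower gut and the anus of mice during and after chemical colitis. The 10 genes, of 30452 in the table, were chosen by name with their measured levels in these samples in view, so what follows describes them, and no call on them is independent support. Wildtype C57Bl/6 mice, bought at 6 weeks of age, received 3% dextran sulfate sodium (DSS), which injures the colonic epithelium, for 6 days from day 0. The 4 mice of day 0 had no DSS, and 3 mice each were dissected on days 3, 6, 9, 14 and 20. From each of the 19 mice RNA was sequenced from a mid-colonic, a rectal and an anal section, and from the 9 mice of days 9, 14 and 20 also from the squamous neo-epithelium, which makes 66 samples in all. These are bulk sections with the muscle layer discarded, so that a lower level can mean fewer cells of a type or less RNA per cell, which cannot be told apart. Values are the authors' TPM (transcript abundances scaled for length and library), a measure that allows levels of different genes to be compared but keeps no read depth.

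Sprr proteins are built from short proline-rich repeats between glutamine- and lysine-rich ends, and transglutaminases join them through these ends to loricrin, involucrin and other envelope proteins. Sprr1 and Sprr3 are known from stratified squamous linings such as the mouth, oesophagus and skin, and Sprr1a rises under epithelial stress. Sprr2a differs in being made by the columnar lining of the intestine too, where bacteria induce it and its protein acts against Gram-positive bacteria.

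The 10 genes lie in 1 cluster at chr3:92215799-92485895 of GRCm38 (mm10), a span of 270.1 kb, with Sprr2a1 first and Sprr1a last. How far they can be measured apart is set by their sequences. The first 90 coding bases are shown for the Sprr2 genes, 5′ to 3′, read from the GENCODE M21 transcripts, with capitals where a gene differs from Sprr2a2.
Sprr2a2: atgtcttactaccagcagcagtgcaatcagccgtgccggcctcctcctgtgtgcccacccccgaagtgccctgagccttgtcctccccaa
Sprr2a3: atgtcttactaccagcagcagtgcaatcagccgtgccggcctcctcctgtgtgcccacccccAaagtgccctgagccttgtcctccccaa
Sprr2d: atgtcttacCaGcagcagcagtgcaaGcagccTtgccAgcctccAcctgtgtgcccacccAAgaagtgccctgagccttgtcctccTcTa
Sprr2e: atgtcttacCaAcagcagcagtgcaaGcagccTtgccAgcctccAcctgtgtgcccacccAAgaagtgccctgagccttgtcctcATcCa
Sprr2f: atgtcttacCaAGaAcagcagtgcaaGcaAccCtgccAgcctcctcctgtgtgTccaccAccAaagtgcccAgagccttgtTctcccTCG
Sprr2h: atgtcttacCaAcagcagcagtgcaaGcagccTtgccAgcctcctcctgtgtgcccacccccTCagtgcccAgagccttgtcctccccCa
Sprr2a1 and Sprr2a2 have the same 249 coding bases, and Sprr2a3 is 98.8% identical to them. Sprr2d, Sprr2e, Sprr2f and Sprr2h differ from Sprr2a2 at 10, 11, 16 and 9 of these 90 bases.

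Reads were 75 bases long, and the share of 75-base windows that a transcript has in common with another Sprr gene shows which values are shared. Of the 648 windows of the main Sprr2a2 transcript all are also found in another Sprr gene, and 94.3% of those of Sprr2a1, so most reads of these 2 copies cannot be assigned to one of them with certainty. The 2 Sprr2a3 transcripts share 28.9% and 47.5% of their windows, so part of the reads of Sprr2a3 can be assigned to it. That Sprr2a2 transcript held 84.99% to 92.62% of the TPM of the 3 copies in every sample, and its annotated first exon, chr3:92215920-92215962, lies inside the first exon of Sprr2a1. The 3 copies are therefore described mainly as a sum, and calls on Sprr2a1 and Sprr2a2 are not separate results. Sprr1a, Sprr1b, Sprr2f, Sprr2h and Sprr3 share no window with another Sprr gene, Sprr2d shares 0.3% and Sprr2e 5.4%.

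The genes also differ in the 250 bases before their RefSeq start (GRCm38.p6). The letters TGANTCA, which AP-1 factors (dimers of Fos and Jun proteins) bind, stand in this window in 6 of the 10 genes and in 6.75% of 32851 promoters, searched on both strands. ATTTGCAT, an octamer that Oct factors bind, stands in 4 of the 10 and in 1.6% of the promoters, in each case downstream of the AP-1 letters and without overlapping them. TATAAA stands in 7 of the 10 and in 12.37% of the promoters. The 3 Sprr2a windows, whose places relative to the GENCODE starts are given below the sequences, hold none of these letters. Sprr3 holds TATAAA only. The stretch from the AP-1 letters to the octamer, with both in capitals, is shown for the 4 Sprr2 genes that hold it, and the stretch between the pair of AP-1 matches for Sprr1a. They are shown because each holds a pair of matches, whereas Sprr1b holds a single AP-1 match that is not shown. No relation between these letters and the levels below was tested.
Sprr2d (chr3:92338947-92339039, + strand): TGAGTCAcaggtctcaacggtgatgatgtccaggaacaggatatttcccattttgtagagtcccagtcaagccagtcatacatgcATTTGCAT
Sprr2e (chr3:92351950-92352042, + strand): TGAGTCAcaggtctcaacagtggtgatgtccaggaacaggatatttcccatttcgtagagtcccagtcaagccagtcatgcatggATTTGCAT
Sprr2f (chr3:92364990-92365082, + strand): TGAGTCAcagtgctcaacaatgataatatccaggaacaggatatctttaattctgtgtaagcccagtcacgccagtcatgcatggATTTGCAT
Sprr2h (chr3:92385487-92385583, + strand): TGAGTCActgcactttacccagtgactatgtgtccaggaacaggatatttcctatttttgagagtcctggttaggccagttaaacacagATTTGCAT
Sprr1a (chr3:92485991-92486027, - strand): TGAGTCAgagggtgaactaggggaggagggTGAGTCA
The windows start at RefSeq's first base, and for Sprr2a1 that window ends at base 92215834, before the first exon of the main Sprr2a2 transcript. The Sprr2a2 window, chr3:92250397-92250646, lies far downstream of that exon, which starts at base 92215920. The Sprr2a3 window ends at base 92285303, before the first exons of both its transcripts, at 92285417 and 92288566. The bases directly before these GENCODE starts were not searched, so the missing letters hold for the windows only.

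The sections were checked against markers of their cell types. The summed TPM of 10 squamous markers (Krt5, Krt14, Trp63, Krt13 and others) was 9517 to 26166 in anus, 15146 to 32975 in neo-epithelium, 9.35 to 1030 in rectum and 5.04 to 27.7 in mid-colon. Epidermal markers (Krt1, Krt10, Lor, Flg, Flg2) summed to 1894 to 7086 in anus, whereas the neo-epithelium held 5.78 to 275. Colonocyte markers summed to 5568 to 17837 in rectum. Skeletal muscle markers summed to 832 to 9319 in anus, where muscle had been discarded per the labels, and to at most 8.96 in neo-epithelium.

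In uninjured mice the genes fell into gut-high and anus-high sets. The summed Sprr2 genes, nearly all of it Sprr2a, stood at 47863, 46273, 47664 and 49171 TPM in the mid-colon of the 4 mice and at 43834, 43491, 39229 and 37297 TPM in their rectum. In their anus the sum was 11968, 9707, 6515 and 12458 TPM. Every gut sample was above every anal sample. Sprr2a2 alone ranked 1st to 3rd among all genes in these gut samples, and the 10 genes took 4.63% to 4.92% of the mid-colon libraries and 3.73% to 4.39% of the rectal ones. The log2 difference of the sum between anus and rectum was -2.05 (SE 0.20), and between rectum and mid-colon -0.22 (SE 0.07).

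The opposite held for the other 7 genes. Sprr1a was 5380, 3473, 3492 and 2531 TPM in the anus of the 4 mice, against 30.9, 13.4, 26.6 and 4.36 TPM in rectum and 1.48, 5.57, 7.96 and 4.39 TPM in mid-colon. Anus and gut did not overlap, and the rectal and mid-colonic ranges did. Sprr3 was 3364, 1510, 1506 and 886 TPM in anus and 15.1, 3.56, 8.02 and 0.285 TPM in rectum. Sprr1b averaged 181 ± 105 TPM in anus (SD, n = 4) and was listed at 0 in all 4 mid-colons. Sprr2d averaged 307 ± 168 TPM, Sprr2h 38.1 ± 8.28, Sprr2f 7.10 ± 4.53 and Sprr2e 2.63 ± 0.262 TPM in anus (SD, n = 4 each), while Sprr2d, Sprr2e and Sprr2f were listed at 0 in every day 0 mid-colon. On the log2(TPM + 1) scale the anus exceeded the rectum by 8.22 (SE 0.69) for Sprr3, 7.80 (SE 0.50) for Sprr1a, 6.98 (SE 0.42) for Sprr2d and 6.86 (SE 0.36) for Sprr1b. Of the 10 genes 7 were called higher in anus, where 25.9% of all genes tested were, and the 3 Sprr2a copies lower, where 34.4% were. The choice of genes rested on this contrast, so nothing is read from those counts. Between rectum and mid-colon 0 of the 4 genes that passed the filter on low values were called by limma, 2 at an unadjusted p under 0.05, and 1.79% of all genes were called. Without mouse 4 the count was 1.

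Some of the low rectal levels at day 0 had the same order of mice as some squamous markers. Sprr3 in the rectum of mice 1 to 4 was 15.1, 3.56, 8.02 and 0.285 TPM, and the keratin Krt13 was 45.05, 17.9, 34.2 and 2.76 TPM in the same libraries. Both had the same order of mice, and the summed squamous markers (139, 61.9, 117 and 19.2 TPM), Sprr1a and Sprr2d had it too. Among other listed markers Krt4 and Dsg3 had this order. Krt5 (9.01, 3.29, 9.44 and 0.613 TPM) and Trp63 (0.313, 0.0748, 0.0630 and 0 TPM) did not. Sprr2h (0.648, 0.272, 1.07 and 0.465 TPM) and Sprr1b (1.38, 0.0773, 0.130 and 0.397 TPM) did not. The part of anal cells in these rectal values was not tested.

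Under DSS the gut Sprr2 sum first fell and then rose above its starting level. In mid-colon it was 21266, 24215 and 25876 TPM at day 3 and 67747, 64876 and 85202 TPM at day 6. All 3 mice of day 3 lay below, and all 3 of day 6 above, the 4 mice of day 0. The rectum ran the same course, with 22122, 28101 and 20640 TPM at day 3 and 72891, 59420 and 87110 TPM at day 6, again with no overlap with day 0. The log2 differences from day 0 were -1.01 (SE 0.09) and 0.59 (SE 0.11) in mid-colon and -0.80 (SE 0.12) and 0.82 (SE 0.14) in rectum.

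**Figure D1:**
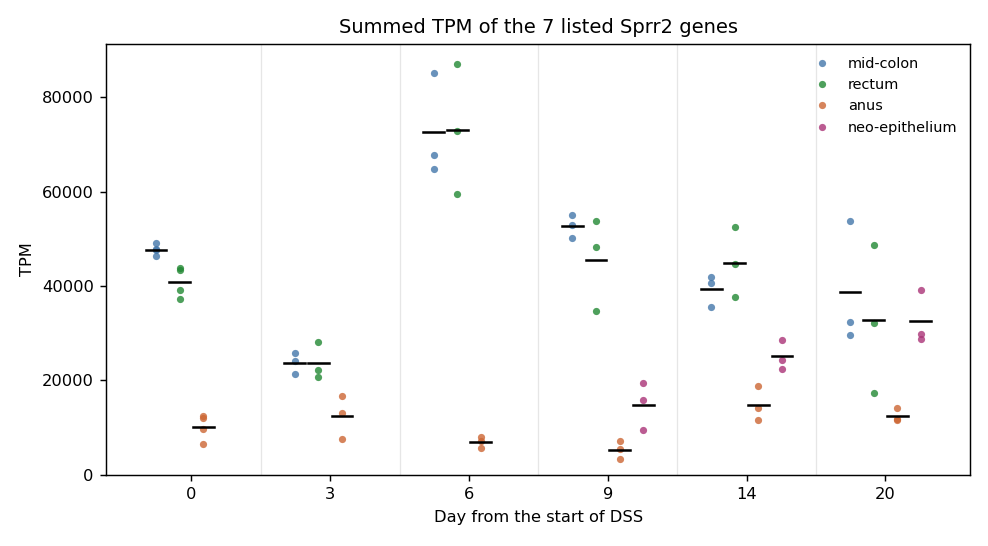
Summed TPM of the 7 listed Sprr2 genes (linear axis from 0) by day from the start of DSS, with 1 point per mouse, colours for the 4 sections and black bars for group means. Mid-colon and rectum run from 20640 to 28101 at day 3 and from 59420 to 87110 at day 6, while the anus lies at 18713 or less on every day.

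By limma all 3 Sprr2a copies fell at day 3 in mid-colon (adjusted p 0.0035 to 0.011 with Benjamini-Hochberg adjustment) and in rectum (0.0031 to 0.0054). These were the only members called of 4 and 5 tested, where 0.308% and 5.13% of all genes were called lower. Without mouse 4 the count in rectum was 5. At day 6 all 3 copies rose in mid-colon (log2 0.56 to 0.78) and in rectum (log2 0.74 to 0.96). The members called higher were 4 of 4 tested in mid-colon, Sprr1a being the other, and 3 of 6 in rectum, where 4.93% and 11.5% of all genes were. The comparisons with day 0 share its 4 mice. With no filter on low values 1 member was called at day 3 in mid-colon, and Sprr2a2 missed the threshold at day 3 in rectum (adjusted p 0.122) and at day 6 in mid-colon (0.118). With TMM factors Sprr2a2 missed it at day 3 in mid-colon (0.058), and without mouse 1 or mouse 6 Sprr2a1 missed the threshold there (adjusted p 0.0501 and 0.0503). The summed goblet cell markers were 15502 to 19876 TPM in mid-colon at day 0 and 11723 to 12874 TPM at day 3. At day 6 they were 22072 to 24524 TPM. In rectum they were 8137 to 10655 TPM at day 0, 7893 to 9080 TPM at day 3 and 17579 to 18725 TPM at day 6. The rectal sums of day 3 overlapped day 0. The 4 goblet markers did not fall as a set at day 3. Their median log2 difference was 0.07 in mid-colon and 0.48 in rectum, beside 0.14 and -0.06 over all genes. Neutrophil markers reached 36.0 to 197 TPM in mid-colon and 345 to 3425 TPM in rectum at day 6. Colonocyte markers at day 6 were 13415 to 15717 and 15298 to 16977 TPM. The part of these cell types in the Sprr2 course was not tested. The median of all genes tested moved the other way at day 6, by -0.24 in mid-colon and -0.27 in rectum.

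After DSS was withdrawn the sum was near its starting range on days 9 and 14, and at day 20 it was uneven between mice. Mid-colons of 29703 and 32464 TPM and rectums of 17405 and 32068 TPM then lay below every mouse of day 0. The lowest values of day 0 were 46273 TPM in mid-colon and 37297 TPM in rectum. The SD of the sum at day 20 was 13187 TPM in mid-colon and 15670 TPM in rectum, against 11000 and 13847 TPM at day 6 (n = 3 each). In mid-colon it was 52953, 50237 and 55160 TPM at day 9, 40638, 35618 and 41982 TPM at day 14 and 29703, 53798 and 32464 TPM at day 20. In rectum it was 34610, 48222 and 53776 TPM at day 9, 44634, 52470 and 37666 TPM at day 14 and 17405, 48724 and 32068 TPM at day 20. Day 9 lay above and day 14 below day 0 in mid-colon, where the day 9 difference has the opposite sign with trimmed-mean (TMM) scaling factors, and the rectal ranges overlapped day 0 from day 9 on. The summed colonocyte markers stood lower at day 9, at 6077 to 7453 TPM in mid-colon and 5568 to 6807 TPM in rectum, against 13427 to 16000 and 13072 to 14554 TPM at day 0. Of the 9 markers limma called 6 lower and 0 higher in mid-colon, beside 2089 lower and 3264 higher of all 12323 genes. In rectum it called 7 lower and 2 higher, beside 2624 and 4404 of all 13140 genes. The 10 genes made up 3.47% to 5.39% of the rectal libraries of day 9, with the colonocyte sum below its day 0 range. None of the 4 members tested was called by limma in mid-colon at day 14 (3 at an unadjusted p under 0.05) or day 20 (0 at that level), where 4.36% and 1.56% of all genes were. Without mouse 14 the count at day 14 was 3, and without mouse 18 that at day 20 was 1.

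Of the members that are scarce in the healthy gut, Sprr1a and Sprr2h rose in both sections by day 9 and Sprr2d and Sprr2f in rectum. In mid-colon Sprr2d and Sprr2f did not pass the filter on low values. Sprr2d was listed at 0 there at day 0 and was 0.473, 1.08 and 0.401 TPM at day 9. Its response did not differ between the sections by the interaction term (limma adjusted p = 0.172). Sprr2h went from 0.648, 0.272, 1.07 and 0.465 TPM in the rectum of day 0 to 28.1, 63.9 and 18.4 TPM at day 9, a log2 difference of 4.39 (SE 0.37, limma adjusted p = 2.8e-05). In mid-colon it went from at most 0.594 TPM to 12.8, 19.9 and 8.23 TPM (log2 3.45, SE 0.28, limma adjusted p = 2.0e-05). Neither section overlapped its day 0 range. Sprr1a reached 74.3, 99.6 and 79.0 TPM in the rectum at day 9 (log2 2.39, SE 0.54, limma adjusted p = 0.0056). In mid-colon it was already up at day 6, with 21.0, 18.0 and 31.4 TPM, and stood at 24.5, 59.1 and 31.3 TPM at day 9 (log2 2.79, SE 0.42, limma adjusted p = 0.00054). By day 20 it was back at 6.59 to 7.94 TPM in mid-colon and 4.47 to 26.6 TPM in rectum, which overlap day 0. Sprr2d and Sprr2f rose in rectum at day 9, Sprr2d to 14.2, 12.7 and 3.34 TPM and Sprr2f to 1.80, 5.60 and 1.498 TPM, by log2 2.15 (SE 0.50) and 1.79 (SE 0.32). Sprr3 had 1.82, 0.261 and 0.126 TPM in these rectums against 0.285 to 15.1 TPM at day 0. Sprr1b was listed at 0 in all 3 mid-colons and at 0.632, 0 and 0 TPM in the rectums, and it and Sprr2e did not pass the filter on low values. Members called higher at day 9 were 3 of 5 tested in mid-colon (Sprr1a, Sprr2h and the copy Sprr2a3), where 26.5% of all genes were (with TMM factors Sprr2a3 had an adjusted p of 0.087), and 4 of 8 in rectum, where 33.5% were.

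**Figure D2:**
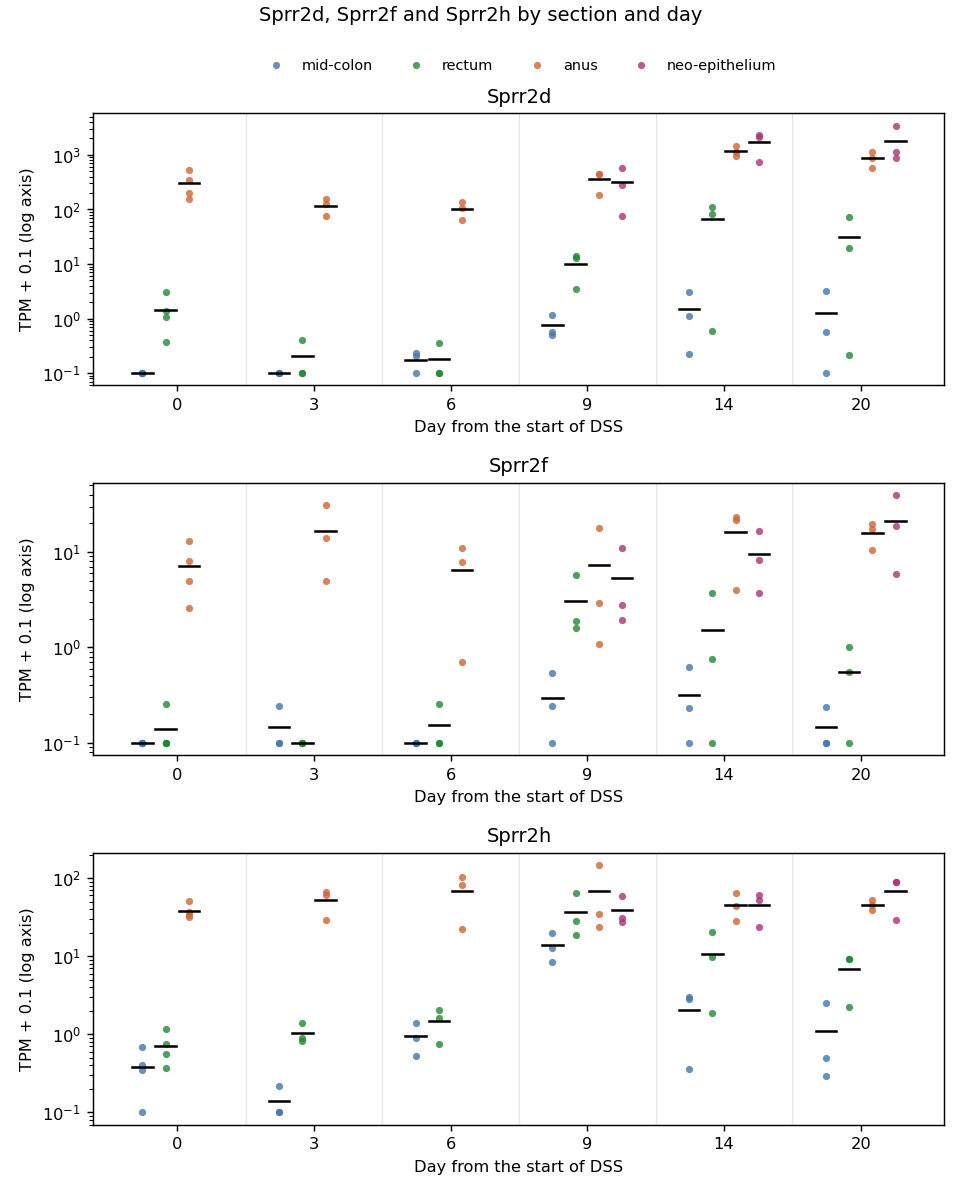
TPM + 0.1 on a log axis for Sprr2d, Sprr2f and Sprr2h by day, with 1 point per mouse, colours for sections and black bars for group means. Sprr2h in rectum and mid-colon lies at or below 1.93 TPM up to day 6 and at 8.23 to 63.9 TPM at day 9.

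At day 9 other cell types moved in the same libraries. The 4 neutrophil markers (S100a8, S100a9, Csf3r, Cxcr2, of which S100a8 and S100a9 are also made by keratinocytes) summed to 10373 to 12252 TPM in rectum and 446 to 2099 TPM in mid-colon, from at most 5.22 TPM at day 0. Squamous markers summed to 769, 133 and 113 TPM in the 3 rectums and 20.0 to 27.7 TPM in the mid-colons, and all 10 reached 1 TPM in a rectum of day 9 against 6 in a mid-colon. Mouse 12 had the highest Sprr2h and Sprr1a in both gut sections. The highest squamous sum was in mouse 11 in rectum and in mouse 12 in mid-colon. In mid-colon Krt5 was at most 0.638 TPM and Trp63 at most 0.0515 TPM in the same libraries. Krt13 was 5.75 to 9.05 TPM there, against 0.340 to 1.34 TPM at day 0. Dsg3 was 1.33 to 1.85 TPM, against at most 0.0944 TPM. Of the 5 squamous markers tested in mid-colon at day 9, limma called 4 higher, where 26.5% of all genes were. The part of squamous cells in the rectal rise was not tested.

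On days 14 and 20 the rectum was high in Sprr2d in some mice only. Sprr2d was 0.483, 83.9 and 113 TPM in mice 14, 15 and 16 and 19.9, 72.8 and 0.116 TPM in mice 17, 18 and 19. Krt5, the basal squamous keratin, was 0.101, 151 and 108 TPM and then 70.9, 39.1 and 0.0290 TPM in the same order. Mice 14 and 19 were low in both, and the other 4 were high in both. Sprr2h ran with them, at 1.79, 20.4 and 9.64 TPM and 9.19, 9.25 and 2.16 TPM, all above day 0 (at most 1.07 TPM). Sprr3 did not run with them, at no more than 0.276 TPM in all 6, including rectums whose squamous markers summed to 1030 and 724 TPM. In the rectums of day 0 squamous sums of at most 139 TPM came with up to 15.1 TPM of Sprr3. The part of squamous cells in these values was not tested.

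**Figure D3:**
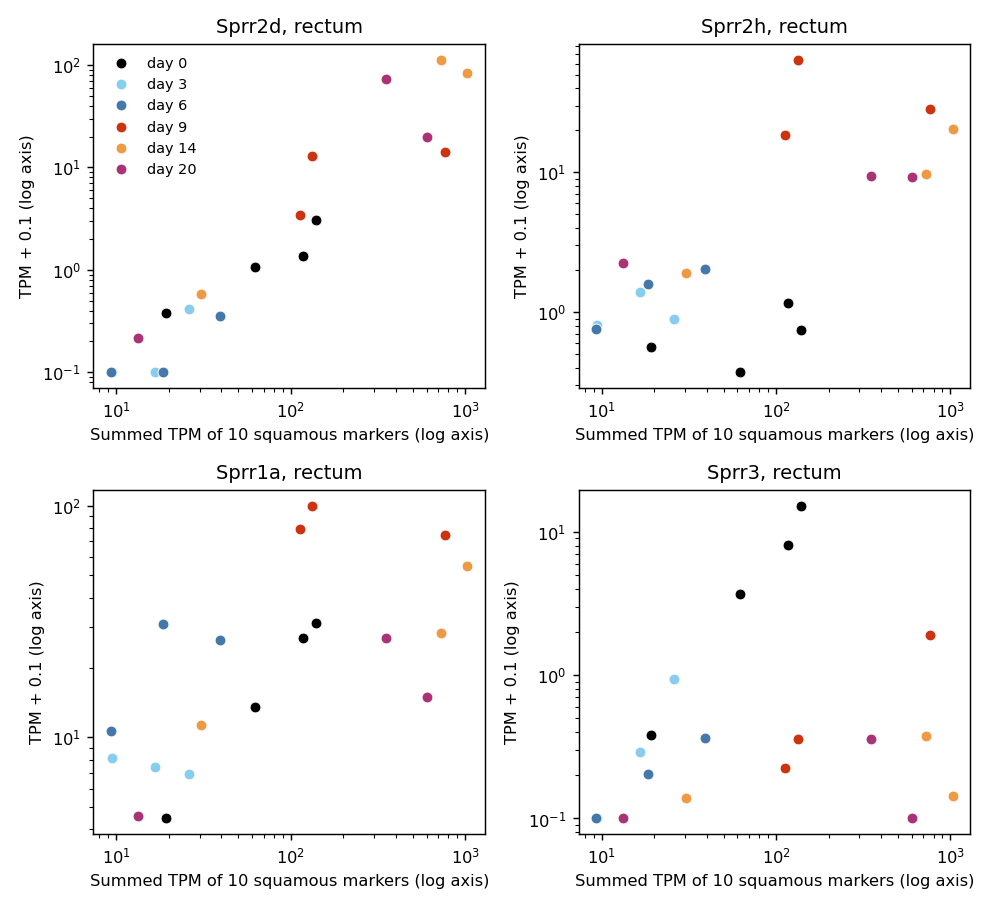
Each point is the rectum of 1 of 19 mice, coloured by day, with the summed TPM of 10 squamous markers on the x axis and the TPM + 0.1 of Sprr2d, Sprr2h, Sprr1a or Sprr3 on the y axis (both log). The 4 rectums of days 14 and 20 with squamous sums of 352 to 1030 TPM have 19.9 to 113 TPM of Sprr2d and at most 0.276 TPM of Sprr3.

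Sprr2h was the only member called in rectum on those days, 1 of 7 tested on each, by log2 2.44 (SE 0.60, limma adjusted p = 0.035) at day 14 and 2.12 (SE 0.41, limma adjusted p = 0.030) at day 20. Of all genes 6.31% and 2.79% were called higher. All 3 mice of each day lay above the 4 of day 0. Leaving out any mouse but mouse 14 at day 14 took the adjusted p to 0.072 to 0.132, and any but mouse 19 at day 20 took it to 0.063 to 0.094. No member was called on either day with no filter on low values. Without mouse 14 the count at day 14 was 3, and without mouse 19 that at day 20 was 2. Sprr3 fell in rectum at day 6 by 2.27 on the log2 scale (SE 0.72, limma adjusted p = 0.029), the only member lower of 6 tested where 37.2% of all genes were. That call was lost when any mouse of day 6 was left out (adjusted p 0.068 to 0.070), and Krt13 was 0.795 to 2.54 TPM in these rectums against 2.76 to 45.05 TPM at day 0.

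Like the anus, the squamous neo-epithelium of days 9, 14 and 20 carried members of both sets at once. Sprr2a made up 82.2% to 96.3% of the TPM of the 10 genes in neo-epithelium and 42.1% to 78.8% in all anal samples. The Sprr2 sum of the neo-epithelium was 9454, 19349 and 15848 TPM at day 9, 28495, 24294 and 22497 TPM at day 14 and 28750, 39171 and 29774 TPM at day 20. It was above the anus of the same mouse in 9 of 9 mice (24181 against 10912 TPM on average) and below the rectum in 8 of 9 (41064 TPM). The log2 difference was 1.21 (SE 0.17) from anus and -0.79 (SE 0.25) from rectum, with the day as a covariate. Sprr1a averaged 969 TPM, against 43.6 TPM in the rectum and 3321 TPM in the anus of these mice, and lay between them in 9 of 9. Sprr2d, Sprr2e, Sprr2f and Sprr2h did not differ from the anus beyond their error, with log2 differences of 0.25 (SE 0.39), 0.23 (SE 0.40), -0.19 (SE 0.48) and -0.01 (SE 0.33).

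Sprr1b and Sprr3 were where neo-epithelium and anus differed most. Sprr1b averaged 7.08 TPM in the newly formed squamous lining, against 223 TPM in anus, a log2 difference of -4.93 (SE 0.47, limma adjusted p = 1.9e-07). Sprr3 averaged 269 and 1356 TPM, a difference of -3.97 (SE 0.79, limma adjusted p = 0.00044). Both were lower in neo-epithelium in 9 of 9 mice. Against anus 3 of 10 members were called higher (the Sprr2a copies) and 3 lower (Sprr1a, Sprr1b, Sprr3), where 40.1% and 19.7% of all genes were. Against rectum 6 of 9 tested were called higher and the 3 Sprr2a copies lower, where 20.9% and 22% of all genes were. With the mouse as a replicate block no member's call changed.

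**Figure D4:**
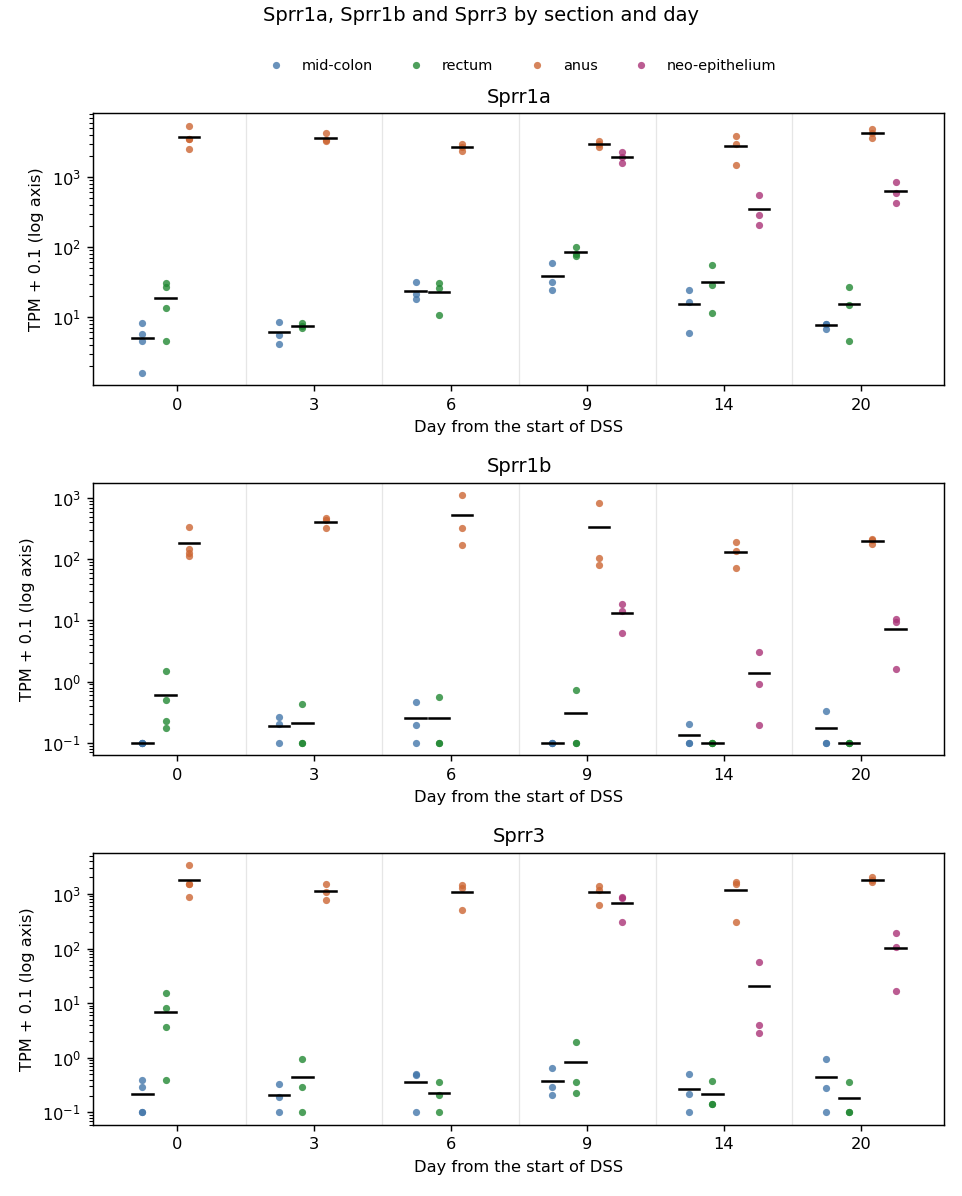
TPM + 0.1 on a log axis for Sprr1a, Sprr1b and Sprr3 by day, with 1 point per mouse, colours for sections and black bars for group means. Sprr3 in neo-epithelium lies at 308 to 885 TPM at day 9 and at 2.78 to 56.0 TPM at day 14, while the anus stays at 304 TPM or more.

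Within the neo-epithelium the members moved apart with time. Sprr1a was 1604, 2276 and 1931 TPM at day 9, 288, 548 and 209 TPM at day 14 and 851, 422 and 594 TPM at day 20. Sprr3 was 308, 852 and 885 TPM, then 3.82, 56.0 and 2.78 TPM, then 190, 16.3 and 106 TPM. Neither gene's later days overlapped its day 9. Sprr2d went the other way, from 76.4, 578 and 286 TPM at day 9 to 727, 2347 and 2151 TPM at day 14 and 1149, 3412 and 883 TPM at day 20, above day 9 in all 6 mice. Between days 9 and 20 Sprr1a fell by 1.68 on the log2 scale (SE 0.27, limma adjusted p = 0.0082). The Sprr2 sum differed by 1.18 (SE 0.29). Of the Sprr2a copies, Sprr2a1 was called higher (log2 1.66, SE 0.21, limma adjusted p = 0.0045). Sprr2a3, which can in part be measured apart, was not called (log2 0.82, SE 0.30, limma adjusted p = 0.082). Sprr2d differed by 2.69 (SE 0.81, limma adjusted p = 0.051). The calls on Sprr3 (log2 -3.12, SE 0.90, limma adjusted p = 0.045) and Sprr2a2 (log2 1.11, SE 0.28, limma adjusted p = 0.029) did not hold without single mice (adjusted p 0.059 to 0.142), Sprr3 without mouse 11, 12, 13 or 19 and Sprr2a2 without mouse 13, 17, 18 or 19. In all 2 of 10 members were called higher and 2 lower, where 10.1% and 16.1% of all genes were. The 2 higher were Sprr2a1 and Sprr2a2, whose calls are not separate results.

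Other markers changed in these samples over the same days. Colonocyte markers summed to 28.0 to 584 TPM in neo-epithelium at day 9, 715 to 5644 TPM at day 14 and 2912 to 6451 TPM at day 20, and goblet cell markers to 4.14 to 61.5, 535 to 4226 and 2480 to 5366 TPM. Neutrophil markers ran from 6784 to 17049 TPM at day 9 to 479 to 5389 TPM at day 20. The part of gut epithelium in the later Sprr2a levels was not tested. Sprr2d, which was at most 113 TPM in any rectum, stood at 727 TPM or more in neo-epithelium on days 14 and 20.

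In the anus few members passed the test on any day. Sprr1a stayed between 1485 and 5380 TPM and Sprr3 between 304 and 3364 TPM over all 19 mice, and every day overlapped day 0. Sprr1b reached 1103 TPM in mouse 9 and 826 TPM in mouse 12, with 72.9 to 468 TPM in the other 17. Sprr2d lay outside its day 0 range on 4 of the 5 later days. It was 528, 343, 204 and 154 TPM at day 0, 153, 76.0 and 123 TPM at day 3, 63.8, 138 and 108 TPM at day 6, 438, 445 and 187 TPM at day 9, 948, 1142 and 1455 TPM at day 14 and 569, 1144 and 882 TPM at day 20. Days 3 and 6 lay wholly below day 0, and days 14 and 20 wholly above it. For day 3 this rests on a near tie, with its highest value at 153.34 TPM and the lowest of day 0 at 153.603 TPM. Sprr2e, at 2.25 to 2.84 TPM at day 0, was 10.7, 3.70 and 17.5 TPM at day 3 and 3.67, 5.18 and 5.47 TPM at day 20, both wholly above day 0, and neither was called. The fall of Sprr2d at day 6 (log2 -1.47, SE 0.42, limma adjusted p = 0.0496) and rise at day 14 (log2 2.08, SE 0.40, limma adjusted p = 0.027) were the only members' calls in anus, 1 of 10 each, where 6.37% of all genes were called lower and 2.26% higher. The day 6 call was lost without mouse 1, 2, 8, 9 or 10 (adjusted p 0.064 to 0.183) and the day 14 call without mouse 2, 3, 14, 15 or 16 (0.052 to 0.115). Neither was called with no filter on low values or with TMM factors. Without mouse 3 the count at day 6 was 3 and without mouse 8 it was 2. On days 3, 9 and 20 limma called 0 of 10 members, 3 at an unadjusted p under 0.05 on each day, and 0.044%, 5.09% and 1.46% of all genes. Without mouse 1 the count at day 3 was 1, and at day 9 it was 1 without mouse 3 and 2 without mouse 13.

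The anal Sprr2 sum did not rise with the gut at day 6. Its log2 difference from day 0 was -0.53 (SE 0.25), and the ranges overlapped. No Sprr2a copy was called there (limma adjusted p 0.074 to 0.255). The sum was 7932, 5587 and 7194 TPM at day 6 and 3324, 5503 and 7224 TPM at day 9, against 6515 to 12458 TPM at day 0, and 11583, 14241 and 18713 TPM at day 14. Colonocyte markers in anus were 1397 to 5649 TPM on days 0 and 3 and 31.0 to 87.6 TPM on days 6 and 9, when the anal Sprr2 sum was at most 7932 TPM. At day 14 they were still 74.7 to 341 TPM, while the Sprr2 sum was 11583 to 18713 TPM. The part of gut epithelium in the anal Sprr2 level was not tested.

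The changes from day 0 were compared between sections by an interaction term. At day 6 the 3 Sprr2a copies responded lower in anus than in rectum, by log2 differences of -1.54 (SE 0.31), -1.31 (SE 0.30) and -1.86 (SE 0.36) for Sprr2a1, Sprr2a2 and Sprr2a3 (limma adjusted p 0.0026 to 0.0073), 3 of 10 members where 6.16% of all genes were. At day 9 limma called 4 of 10, where 15.6% were: Sprr2h (-4.00, SE 0.71), Sprr1a (-2.66, SE 0.65), Sprr2a3 (-1.85, SE 0.49) and Sprr2a1 (-1.39, SE 0.43). With the mouse as a replicate block 7 were called, the others being Sprr2a2, Sprr2d and Sprr2f, and 2 without mouse 4. Sprr2a1 missed the threshold without mouse 1, 2, 4, 11 or 12, and Sprr2a3 without mouse 4 or 12. Between rectum and mid-colon no member of 6 tested differed in response at day 6 (2 at an unadjusted p under 0.05), where limma called 0% of all genes and 730 had an unadjusted p under 0.05. At day 9 Sprr2f alone of 8 tested responded more in rectum (1.55, SE 0.37, limma adjusted p = 0.021), where 5.84% of all genes did. That call was lost without mouse 1, 2, 3 or 4 (adjusted p 0.057 to 0.075) and with TMM factors, and Sprr2f was at most 5.60 TPM in rectum.

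**Figure D5:**
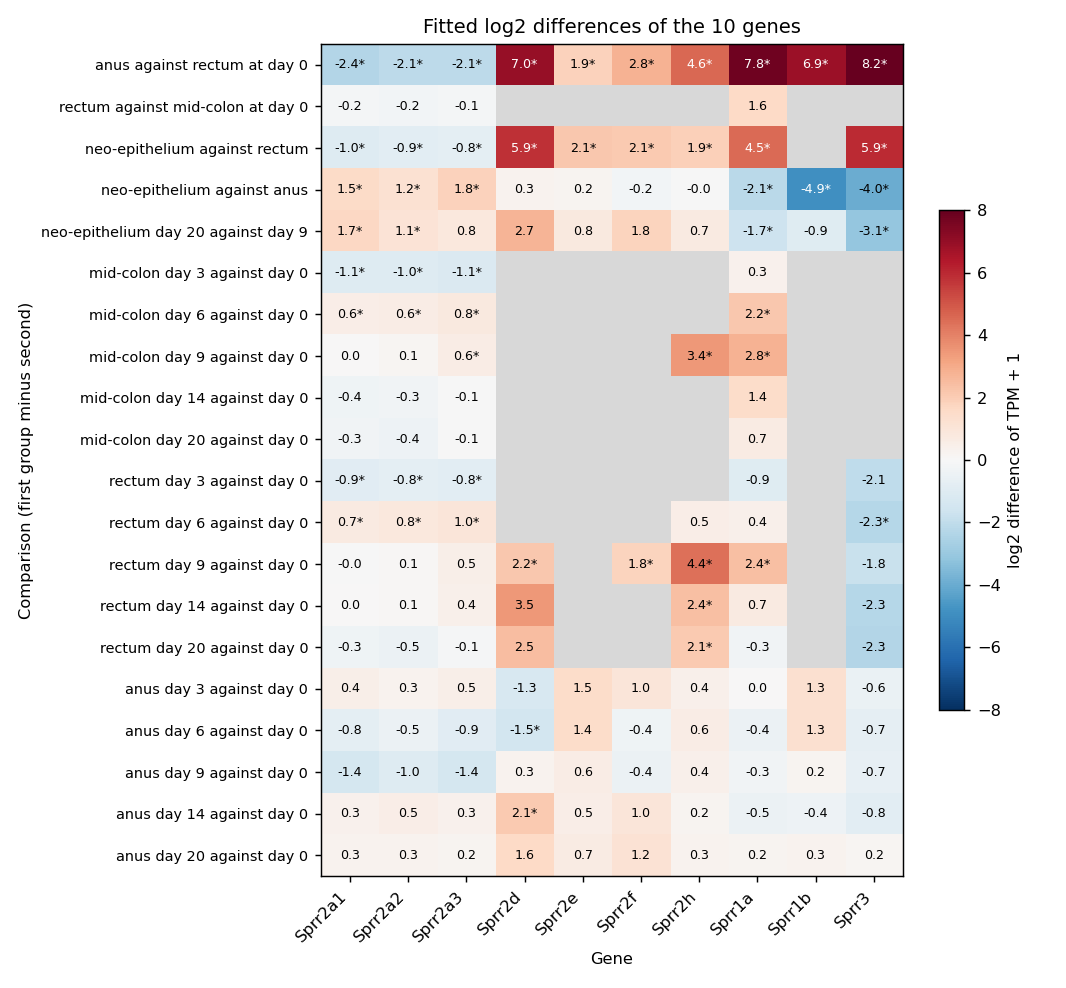
Fitted log2 differences of TPM + 1 for the 10 genes (columns) in 20 comparisons (rows), first group minus second, with a colour scale from blue (lower) to red (higher). Asterisks mark a limma adjusted p under 0.05 over all genes and grey cells did not pass the filter on low values. The genes were chosen on the contrast of the top row, where the Sprr2a columns have the opposite sign to the other 7.

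The other genes of the cornified envelope were taken from a list of 30 (structural proteins, transglutaminases and late cornified envelope genes). In anus against rectum at day 0, 28 of 30 were higher and 1 lower, where 25.9% and 34.4% of all genes were, with a median log2 difference of 5.68 beside -0.15 over all genes. The gene that was lower was Tgm3, a transglutaminase that cross-links Sprr proteins, by 2.46 on the log2 scale (SE 0.30). It averaged 583 TPM in rectum and 117 TPM in anus, the same side as Sprr2a. Loricrin (Lor), the main envelope protein of skin, averaged 890 TPM in anus and 2.03 TPM in rectum.

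Most of these partners were lower in neo-epithelium than in anus. Against anus 3 of 30 were higher and 25 lower, where 40.1% and 19.7% of all genes were, with a median of -3.78 beside 0.18 over all genes. In neo-epithelium 29 partners reached 1 TPM in a sample of day 9, 23 at day 14 and 28 at day 20, against all 30 in anus. Lor differed by -7.12 (SE 0.46), Lce1a1 by -7.19 (SE 0.33) and the filament-bundling Flg by -5.99 (SE 0.61). Tgm1, the membrane-bound transglutaminase of keratinocytes, was among the 3 that were higher, by 0.42 (SE 0.15). Against rectum 13 of 16 tested were higher, led by Cnfn (7.00, SE 0.58), and 1 was lower, Tgm3 (-1.997, SE 0.41), where 20.9% and 22% of all genes were. From day 9 to day 20 Tgm3 rose by 3.03 (SE 0.36), from 14.6 to 133 TPM on average, and Cnfn fell by 1.25 (SE 0.19), as 2 of 28 tested were higher and 6 lower, where 10.1% and 16.1% of all genes were.

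In rectum at day 9, where Sprr1a and Sprr2h were up, 4 of 15 partners tested were higher and 7 lower, beside 4404 higher and 2624 lower of all 13140 genes. Tgm2, a widely expressed transglutaminase, rose by 4.00 (SE 0.38) and Tgm1 by 2.61 (SE 0.24), from 0.605 to 8.61 TPM on average. Tgm3 fell by 3.67 (SE 0.12), from 583 to 44.97 TPM. In mid-colon at day 9 Tgm2 rose by 2.96 (SE 0.45) and Tgm3 fell by 2.57 (SE 0.22), 3 of 13 being higher and 4 lower, beside 3264 and 2089 of all 12323 genes.

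Transcription factors known to act on Sprr promoters or in late squamous differentiation formed a list of 16. In rectum at day 9, 4 of 15 tested were higher and 6 lower, against 4404 and 2624 of all 13140 genes, so that the higher share is near that of all genes. Fosl1, an AP-1 subunit, rose by 2.68 (SE 0.28), from 0.908 to 11.8 TPM, and Grhl3, a factor of barrier formation, by 1.54 (SE 0.29). Klf4, which is active in both goblet cells and upper squamous layers, fell by 1.51 (SE 0.20). Klf5 fell by 1.68 (SE 0.22) and Zfp750 by 1.35 (SE 0.26). In neo-epithelium Fosl1 fell by 1.95 (SE 0.38) from day 9 to day 20, while Klf4 rose by 1.33 (SE 0.33) and Elf3 by 0.76 (SE 0.15), 2 of 16 being higher and 1 lower, where 10.1% and 16.1% of all genes were. In anus against rectum at day 0, 4 of 16 were higher, led by Grhl1 (4.55, SE 0.17) and Grhl3 (4.15, SE 0.21), and 9 lower, where 25.9% and 34.4% of all genes were. At day 6, the peak of the gut Sprr2 sum, 3 of 15 were higher and 5 lower in rectum, where 11.5% and 37.2% of all genes were, with Fosl1 up by 1.18 (SE 0.26) and Klf5 down by 1.45 (SE 0.21).

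The genes with the most similar course were found by Pearson's r of log2(TPM + 1) over the 66 samples among 14806 genes outside the family. These points share mice and sections, and r mainly follows the split between gut and anus. For Sprr1a they were Cers3 (r = 0.982), Dusp22 (0.979) and Cysrt1 (0.974). For Sprr3 they were 2300002M23Rik (0.990), Klk13 (0.989) and Crct1 (0.987). For the Sprr2 sum they were Plac8 (0.921), Nat8f4 (0.910) and Serpinb1a (0.907). Plac8 averaged 3059 TPM in mid-colon, 3344 in rectum, 560 in anus and 1869 in neo-epithelium, the same order of anus, neo-epithelium and gut as the Sprr2 sum.

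The 7 Sprr genes of the table outside the listed 10 were at most 147 TPM in any sample. Sprr2b, next to the Sprr2a copies, spanned 4.09 to 25.9 TPM over the mid-colons, and the rectal samples held 3.26 to 27.7 TPM. Anal samples had 2.29 to 27.8 TPM of it and neo-epithelium 3.42 to 6.88 TPM. Sprr2i and Sprr2k were highest in anus, at 12.4 to 147 and 14.2 to 137 TPM. Sprr2g was 0.527 to 40.9 TPM in anus and 3.70 to 44.4 in neo-epithelium. Sprr4 was listed at 0 in all 66 samples.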

How the data were processed

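RNA was sequenced from 66 sections of 19 mice as stranded mRNA libraries with single-end reads of 75 bases, per the labels' protocols. The authors deposited 1 table of abundances per transcript in TPM. The submitters' processing notes name CASAVA, kallisto and mm10, with no versions or roles. The table has 126860 rows. Of these, 37344 hold no value and 1318 repeat a transcript and were dropped, after which each sample totals 999999.8 to 1000000.2 TPM. Transcripts were summed to 30452 genes, and 1284 transcripts with no gene identifier (0.563% to 2.833% of TPM) were left out. TPM keeps no depth, so no interval from counts is given, and genes at 1 TPM or more numbered 11268 to 13789 per sample.

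Groups were tested with limma 3.58.1 (R 4.3.3, empirical Bayes with a trend) on log2(TPM + 1), which understates changes of low genes, over genes that reached 1 TPM in a number of samples equal to the size of the smaller group. Calls have a Benjamini-Hochberg adjusted p under 0.05 over all genes tested. Section comparisons at day 0 and responses used the groups named, and neo-epithelium comparisons had the day as a covariate. Sums over members got a difference and SE but no p. Alternatives were a pseudocount of 0.1, no filter, a filter of 5 TPM, trimmed-mean (TMM) factors on TPM, the mouse as a replicate block, and leaving out each mouse. The labels' mouse numbers tie sections to a mouse. The correlation of deviations from group means averaged 0.0538 between anus and rectum, 0.146 between rectum and mid-colon, 0.275 between neo-epithelium and rectum and 0.166 between neo-epithelium and anus. The fits were tested on simulated data with known changes.

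The members and gene lists were chosen with earlier results of these data known. All 10 members, the Sprr2 sum and other Sprr genes are named. From each list at most the 3 largest rises and 3 largest falls among called genes of a comparison are named, with markers from fixed lists. Coding sequences are from GENCODE M21 and promoters from RefSeq (GRCm38.p6).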

Additional observations from a re-analysis of the deposited data

Results flagged for a closer look

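Among 33 groups of 4 mice at day 0, of which those with 4 equal values were skipped, 1 sample stood apart. It was Sprr2f in the rectum, where 1 mouse had 0.158 TPM and the other 3 were listed at 0. Chance sets apart about 1 in 20 groups of varying values. With 3 values at 0, however, any value above 0 stands apart by construction, so nothing is read from this flag.

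The change from day 0 differed between sections by the interaction term for 8 gene and day pairs. At day 6 the log2 change in anus minus that in rectum was -1.54 for Sprr2a1, -1.31 for Sprr2a2 and -1.86 for Sprr2a3, which are near-identical copies. At day 9 it was -4.00 for Sprr2h, -2.66 for Sprr1a, -1.85 for Sprr2a3 and -1.39 for Sprr2a1. At day 9 the change of Sprr2f in rectum minus that in mid-colon was 1.55.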

How the results depend on the processing

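The members' counts and calls were recomputed under each alternative. No called member reversed its direction under any alternative, and of the calls recomputed 250 were kept and 20 lost under other settings, and 381 were kept and 46 lost when 1 mouse was left out. With no filter on low values the members called numbered 2 for neo-epithelium day 20 against day 9, 1 for mid-colon day 3, 0 for rectum days 14 and 20, 0 for anus days 6 and 14, and 2 for the response of rectum against mid-colon at day 9. A pseudocount of 0.1 gave 2 for rectum day 14, 0 for anus day 6 and 0 for the response of rectum against mid-colon at day 9. A filter of 5 TPM, which leaves fewer members tested, gave 0 for rectum days 14 and 20 and 0 for that response. TMM factors gave 0 for anus days 6 and 14 and 0 for that response. With the replicate block 7 members were called for the response of anus against rectum at day 9, and it changed no other count by over 1.5 times. Leaving out each mouse gave 0 to 1 for rectum against mid-colon at day 0, 2 to 3 for neo-epithelium day 20 against day 9, 0 to 3 for mid-colon day 14, 0 to 1 for mid-colon day 20, 3 to 5 for rectum day 3, 0 to 3 for rectum day 14, 0 to 2 for rectum day 20, 0 to 1 for anus day 3, 0 to 3 for anus day 6, 0 to 2 for anus day 9, 0 to 1 for anus day 14, 0 to 1 for the response of rectum against mid-colon at day 9 and 2 to 5 for that of anus against rectum. Where no construction is named, the cause was not tested. TMM factors moved the median of all genes by over 0.1 in 10 of 24 comparisons, by -0.28 to 0.24. They gave the Sprr2 sum log2 differences of -0.49 for rectum against mid-colon at day 0, -1.18, 0.85 and -0.024 for mid-colon days 3, 6 and 9, 1.105 for rectum day 6 and -1.72 for the response of anus against rectum at day 6. Day 9 in mid-colon thus has no direction. TPM without counts leaves the precision of genes under 1 TPM unknown.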
